A study of Mus musculus with 4 samples.

Results

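The genes described here encode the subunits of the proteasome and the factors that assemble it. They were taken by symbol: every row whose symbol begins with Psma, Psmb, Psmc, Psmd, Psme, Psmf or Psmg and a digit, which gave 50 genes of the 25170 in the deposited table. No row was dropped as a pseudogene copy. One gene found this way, Psmc3ip, is not a proteasome part: it encodes a cofactor of meiotic recombination that was first found to bind Psmc3, and it is kept apart below. Ribosome footprints, the short RNA pieces that ribosomes shield from a nuclease, were sequenced from E14, a wild-type mouse embryonic stem cell line derived from the inner cell mass, grown on gelatin in medium with serum and leukemia inhibitory factor (LIF). The control group was 2 libraries of cells kept in the solvent DMSO for 3 passages, and the treated group was 2 libraries of cells kept in 1 µM PD for the same 3 passages. The labels name the compound only as PD, and the stated question is the part played by the kinase Mek in gene regulation after transcription. Nothing in the labels ties replicates to separate cultures, so the p-values below measure only how these libraries scatter, and that scatter may be technical.

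The proteasome is the protease that degrades most short-lived and misfolded proteins once they carry a ubiquitin chain. Its 20S core is a barrel of 4 stacked rings, with alpha subunits in the outer rings and beta subunits, some of them proteolytic, in the inner rings. The 19S cap holds a ring of ATPases that unfold the substrate, along with subunits that bind and remove ubiquitin. Dedicated chaperones build both particles, and other caps open the core without ubiquitin. Embryonic stem cells are known for high proteasome activity. Every ring holds each of its subunits in equal number, which makes their rates of synthesis of interest side by side.

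The PD libraries were shallower than the DMSO libraries, so depth went with treatment. With DMSO replicate 1 taken as the unit, the values gave a relative depth of 1.42 for the other DMSO library and of 0.464 and 0.201 for PD replicates 1 and 2. Stem cell identity was clear in every library: the 10 marker genes, Pou5f1 and Nanog among them, summed to between 2461 and 4140 FPKM (fragments per kilobase of transcript and per total of mapped fragments), with none listed at 0. Dppa5a alone gave 1414 to 3203 FPKM of that sum, while Klf4 was at 0.819 to 3.02. The 12 feeder and fibroblast markers summed to 9.76 and 4.8 FPKM in the DMSO libraries and to 5.91 and 9.39 in the PD libraries, with Lum, Postn and S100a4 listed at 0 in all 4. A footprint level reflects mRNA abundance and ribosome density together, and these cannot be told apart here. In bulk libraries, fewer cells that use a gene and less of its RNA per cell cannot be told apart either.

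Footprints on the proteasome genes showed no common difference between PD and DMSO. Differences are given as PD minus DMSO as log2(FPKM + 1), a scale on which the change of a low gene is understated. Of the 50 genes, 46 averaged 1 FPKM or more across the 4 libraries and were tested, and their median difference was 0.04, against -0.02 over all 9741 genes tested. None of the 46 passed in either direction (limma, Benjamini-Hochberg adjusted p under 0.05 over all genes tested), and their lowest adjusted p was 0.803. Over all genes tested 0.257% passed, 0.0308% as higher in PD and 0.226% as lower. None of the 8897 protein-coding genes among them passed with limma (lowest adjusted p = 0.123, 458 at an unadjusted p under 0.05). Voom, run only on the 6839 genes with recovered reads, called 0 genes of any kind. A missed threshold here therefore does not show that a gene did not differ. At an unadjusted p under 0.05 there were 3 of 46, against 5.76% of all genes. Of the 46, voom on recovered reads tested 35, with 0 passing and 2 at an unadjusted p under 0.05. Both PD libraries lay above both DMSO libraries for 10 of the 46 genes, where 17.5% of all genes tested did so. They lay below for 8 of the 46, against 18.3% of all genes. The other 28 overlapped, so 18 of the 46 had no overlap in either direction, against 35.8% of all genes. These shares lie near the background. The median stood at -0.04 without DMSO replicate 2 and at -0.06 without PD replicate 1, against 0.13 without DMSO replicate 1 or PD replicate 2.

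The median gap between replicate libraries was at least as large as the median difference between groups, but these are unlike measures. A gap compares single libraries, while a group difference compares means of 2 libraries, which scatter less. The median gap between the 2 DMSO libraries was 0.26 log2 units over the 46 genes and the gap between the 2 PD libraries was 0.36, while the median size of the group difference was 0.24. For 13 of the 46 genes the group difference was larger than both gaps. The same share over all genes tested was not computed, so this count gives no result about the family. Differences stayed under 0.5 log2 units in size for 39 genes and exceeded 1 for 3, which were Psmg3, Psma2 and Psmd9. Over all 9741 genes tested, 6615 stayed under 0.5 and 1062 exceeded 1. In the authors' deposited table each value has a confidence interval, and of the 4 pairs of a PD and a DMSO interval, none lay apart for 47 of the 50 genes. The exceptions were Psma2, with 2 pairs apart, and Psmd9 and Psmg3, with 1 each. These intervals surround the same values that gave the differences, and the share over all genes was not computed.

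**Figure D1:**
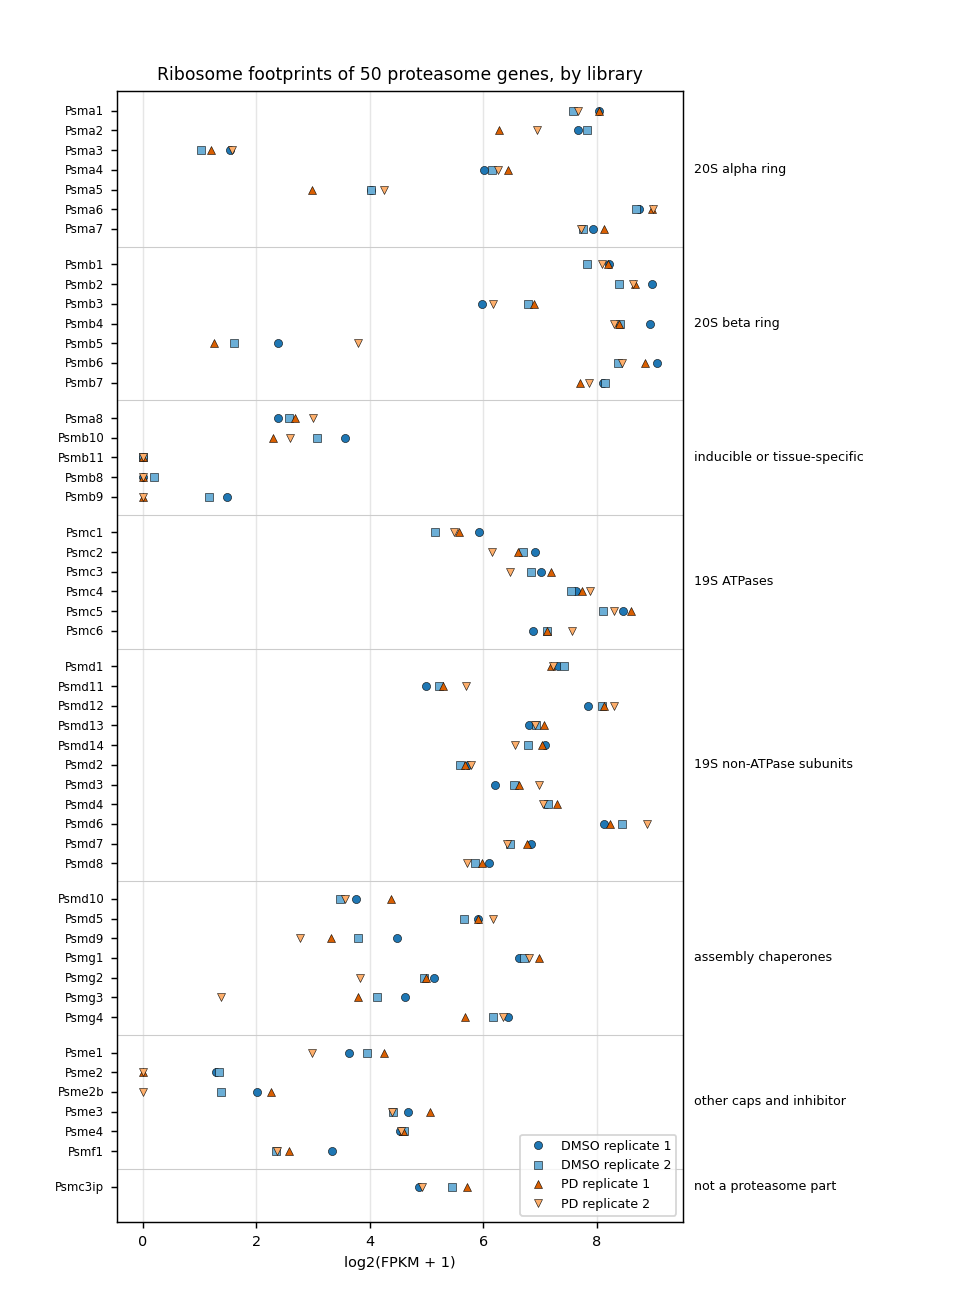
log2(FPKM + 1) of the 50 genes in each of the 4 libraries, grouped by role; each symbol is 1 library. Most subunits of the 20S core and the 19S cap sit well to the right with their 4 symbols close together, while Psma3, Psma5 and Psmb5 and the inducible subunits sit to the left.

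The alpha ring of the core held the gene with the clearest separation, Psma2. Its product sits in the outer ring of the barrel, and its locus in the deposited table (mm10) is chromosome 13, 14613242 to 14625673. Its level was 202 and 228 FPKM under DMSO and 76.9 and 122 FPKM under PD, from 696, 1114, 123 and 85 reads. The groups did not overlap, and both PD libraries were below. Group means were 215 ± 18.6 and 99.7 ± 32.2 FPKM (SD, n = 2), which gave a log2 difference of -1.14 (SE 0.33, limma adjusted p = 0.803). Over the 14 alternative settings its difference ran from -1.47 to -0.80 and the adjusted p from 0.439 to 1.

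The other alpha subunits differed little. Psma6 (chromosome 12, 55384222 to 55418459), the gene with the highest mean of all 50, stood at 428 and 415 FPKM in DMSO and at 504 and 511 in PD. Both PD libraries were above, by a log2 difference of 0.27 (SE 0.25), with the replicates nearly on top of each other. Psma4 stood at 63.3 and 70.4 FPKM in DMSO and at 85.9 and 75.5 in PD, also without overlap and also with a difference of 0.27. Psma5 was low and uneven in PD, at 15.3 and 15.2 FPKM in DMSO against 6.88 and 18 in PD, and its difference of -0.41 turned to 0.22 without PD replicate 1 and was -1.04 without PD replicate 2. Psma1 and Psma7 overlapped between groups, with differences of 0.03 and 0.08. The median of the 7 alpha genes was 0.08, and it was -0.15 without DMSO replicate 2.

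The beta ring carries the proteolytic sites, and its 7 constitutive genes had a median difference of -0.02. None had both PD libraries above and 2 had both below, against 17.5% and 18.3% of all genes tested. Psmb7, the subunit with trypsin-like activity, stood at 276 and 283 FPKM in DMSO and at 208 and 232 in PD, a log2 difference of -0.35 (SE 0.25). Psmb4, a structural subunit, stood at 490 and 341 FPKM in DMSO and at 336 and 316 in PD, where both PD values lay just under the lower DMSO value. Its difference was -0.33 (SE 0.30). Psmb6, the caspase-like subunit and the highest of this ring on average, ranged from 330.4 to 533 FPKM, and both of these extremes were DMSO libraries. Psmb3 stood at 62.4 and 110.3 FPKM in DMSO and at 118 and 70.9 in PD, so its spread within each group exceeded the difference of 0.14. Psmb1 and Psmb2 overlapped, at 228 to 296 and 335 to 504 FPKM. The median of this ring depended on single libraries, at 0.27 without DMSO replicate 1, -0.31 without DMSO replicate 2, -0.22 without PD replicate 1 and -0.01 without PD replicate 2. It was -0.17 with quantile normalization and turned to 0.01 when libraries were centred on their medians.

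Psmb5, the chymotrypsin-like subunit that proteasome inhibitor drugs bind first, was covered too thinly to compare. It stood at 4.19 and 2.05 FPKM in DMSO and at 1.39 and 12.8 in PD, from 13, 9, 2 and 8 reads. The PD libraries hold both the lowest and the highest value. Its difference of 0.53 had an SE of 0.93, and it was -0.73 without PD replicate 2 and 1.80 without PD replicate 1.

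Although subunits of the core are built in equal number, their footprints per transcript length were far from equal. Over the 14 constitutive core genes the mean of the 4 libraries ran from 1.55 FPKM for Psma3 to 465 for Psma6, with a median of 234 and a coefficient of variation of 0.756. Psma3 stood at 1.89 and 1.05 FPKM in DMSO and at 1.29 and 1.98 in PD, from 19, 15, 6 and 4 reads. Psma3, Psmb5 and Psma5 were the lowest 3 in every library, at 1.55, 5.11 and 13.8 FPKM on average, while Psma4 came next at 73.8. Without these 3 genes, set aside after their values were seen, the highest level was 6.3 times the lowest and the coefficient of variation was 0.491. The 3 genes ranked in the same order by their means in both groups.

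Levels of genes with near-identical copies are uncertain, since the treatment of reads that match several places is not stated in the labels or file headers. The RefSeq table (GRCm38.p6) names 6 pseudogenes after 4 of the 50 genes. Psma5 has a copy on chromosome 10 and Psmb5 one on chromosome 11, and both genes were low. Psmb6, with copies on chromosomes 1 and X, and Psmb7, with a pair of copies on X, were nonetheless at 418 and 249.6 FPKM on average, and Psma3 has no copy of that name in the table. The part of such copies in the low levels was not tested.

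**Figure D2:**
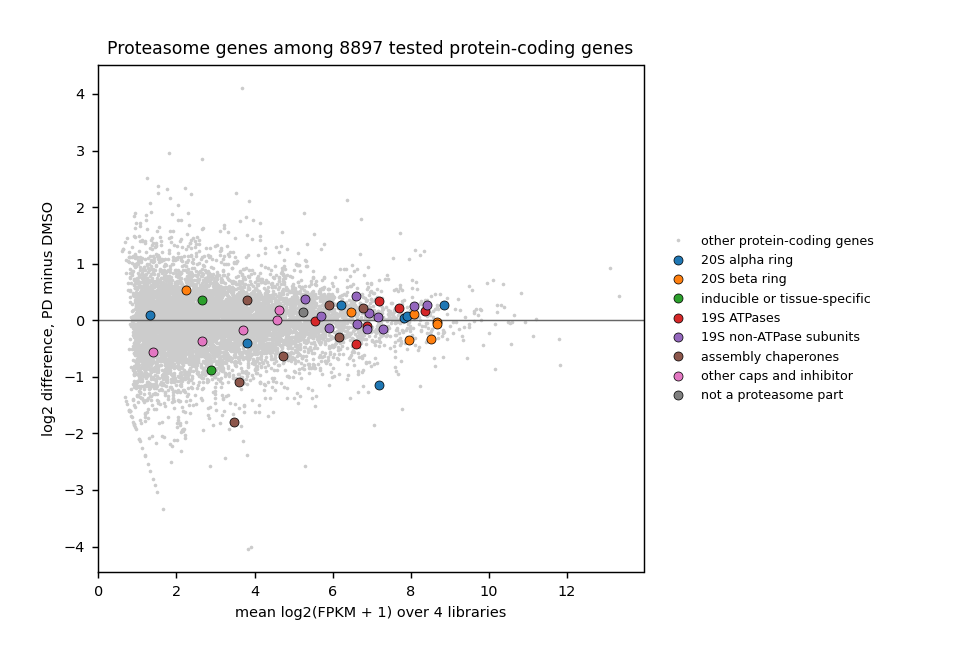
Difference between PD and DMSO (log2 units) against mean log2(FPKM + 1), for the proteasome genes (coloured by role) and the other protein-coding genes among the 8897 tested (grey points). Most proteasome genes lie at high levels and close to 0, and Psmg3, Psma2 and Psmd9 lie lowest.

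The 6 ATPases of the cap form the ring that threads substrates into the core, and their differences lay between -0.42 and 0.35. Psmc2 stood at 119.8 and 103 FPKM in DMSO and at 97.1 and 70.3 in PD, without overlap, with a difference of -0.42 (SE 0.29). Psmc6 stood at 116 and 139 FPKM in DMSO and at 139 and 189 in PD, where PD replicate 1 and DMSO replicate 2 gave the same rounded value. The difference was 0.35 (SE 0.29). Psmc4 stood at 198 and 186 FPKM in DMSO and at 213 and 234 in PD, with both PD libraries above and a difference of 0.22. Psmc5 was the highest ATPase, at 352 and 275 FPKM in DMSO and 389.7 and 315 in PD, and Psmc1 the lowest, at 60.1 and 34.6 in DMSO and 46.9 and 44.1 in PD; both overlapped. Psmc3 overlapped too, at 129 and 114 FPKM in DMSO and 146 and 88.3 in PD. The median of this ring was 0.08, and it turned to -0.09 without DMSO replicate 2 and to -0.02 without PD replicate 1.

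Among the 11 non-ATPase subunits of the cap every difference was under 0.5 log2 units in size, and the median was 0.07. Of all 9741 genes tested, 6615 stayed under 0.5. In 3 of the 11 both PD libraries were above and in 1 both were below, against 17.5% and 18.3% of all genes tested. Psmd3, a scaffold of the lid, stood at 73.1 and 91.9 FPKM in DMSO and at 97.9 and 125 in PD, with means of 82.5 ± 13.3 and 111 ± 18.9 (SD, n = 2) and a difference of 0.43 (SE 0.28, limma adjusted p = 0.837). Psmd11, a lid subunit tied to high proteasome activity in human embryonic stem cells, stood at 31 and 36.2 FPKM in DMSO and at 38.1 and 50.8 in PD, a difference of 0.38 (SE 0.28). It had the lowest mean of the 11, at 39 FPKM, and both PD libraries were above. Psmd12, another lid scaffold, stood at 230.2 and 271 FPKM in DMSO and at 279 and 315 in PD, a difference of 0.25. These 3 genes kept a positive difference in each alternative that gave them a value, from 0.13 for Psmd12 at the lowest to 0.60 for Psmd3 at the highest.

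Psmd6 had the highest mean of the 11, at 279.6 and 346 FPKM in DMSO and at 301 and 472 in PD, and the groups overlapped. Psmd14, the enzyme that cuts ubiquitin chains off substrates, stood at 136 and 110.3 FPKM in DMSO and at 130 and 92.9 in PD. Psmd4, a ubiquitin receptor, stood at 137 and 141 FPKM in DMSO and at 157 and 132 in PD. Psmd1 and Psmd2, the large scaffolds of the base, had differences of -0.15 and 0.07, and Psmd1 was the gene with both PD libraries below, at 146 and 150 FPKM against 159 and 171. Over the 17 cap genes with a Psmc or Psmd symbol the mean level ran from 39 to 349.9 FPKM, with a median of 119 and a coefficient of variation of 0.656, so none of these 17 was as low as Psma3, Psma5 or Psmb5. Psmd7, Psmd8 and Psmd13, also lid subunits, overlapped between groups, with levels of 85.1 to 114, 51.5 to 67.7 and 111 to 134 FPKM and differences of -0.06, -0.13 and 0.12.

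Among the 7 chaperones that assemble the particles, 2 differences exceeded 1 log2 unit in size, both negative, where 1062 of all 9741 genes tested did so. So few genes give no result about the chaperones. Psmg3 (chromosome 5, 139823613 to 139826894), part of a pair that helps build the alpha ring, stood at 23.7 and 16.5 FPKM in DMSO and at 12.8 and 1.6 in PD. Both PD libraries were below, PD replicate 2, the shallowest library, far more so. The means were 20.1 ± 5.11 and 7.19 ± 7.9 FPKM (SD, n = 2), and the difference was -1.80 (SE 0.86, limma adjusted p = 0.837). It was -0.59 without PD replicate 2 and -3.00 without PD replicate 1, the ends of its range over the alternatives. Its partner Psmg4 stood at 85.3 and 71.5 FPKM in DMSO and at 50.2 and 80.4 in PD, and overlapped.

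Psmd9 (chromosome 5, 123228190 to 123250125), a chaperone of the ATPase ring, stood at 21.4 and 12.8 FPKM in DMSO and at 8.97 and 5.84 in PD, from 237, 200, 46 and 13 reads. Both PD libraries were below both DMSO libraries. The means were 17.1 ± 6.12 and 7.4 ± 2.21 FPKM (SD, n = 2), a difference of -1.09 (SE 0.38, limma adjusted p = 0.837). The difference stayed between -1.44 and -0.74 over the alternatives, with adjusted p from 0.477 to 1.

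The remaining chaperones went both ways. Psmd5 and Psmg1 had both PD libraries above: Psmd5 stood at 58.9 and 49.5 FPKM in DMSO and 59.4 and 71.5 in PD, and Psmg1, which pairs with Psmg2, stood at 98.4 and 104 in DMSO and 126 and 111 in PD. Psmg2 was at 34.1 and 30.2 FPKM in DMSO, at 31 in PD replicate 1 and at 13.3 in PD replicate 2, so its difference of -0.63 was -0.05 without that last library and -1.21 without the first PD library. Psmd10, also known as gankyrin, had 12.5 and 10.2 FPKM in DMSO and 19.8 and 10.9 in PD. The 7 chaperones had a median of -0.29, and it was -0.05 without PD replicate 2 and -0.04 without PD replicate 1.

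**Figure D3:**
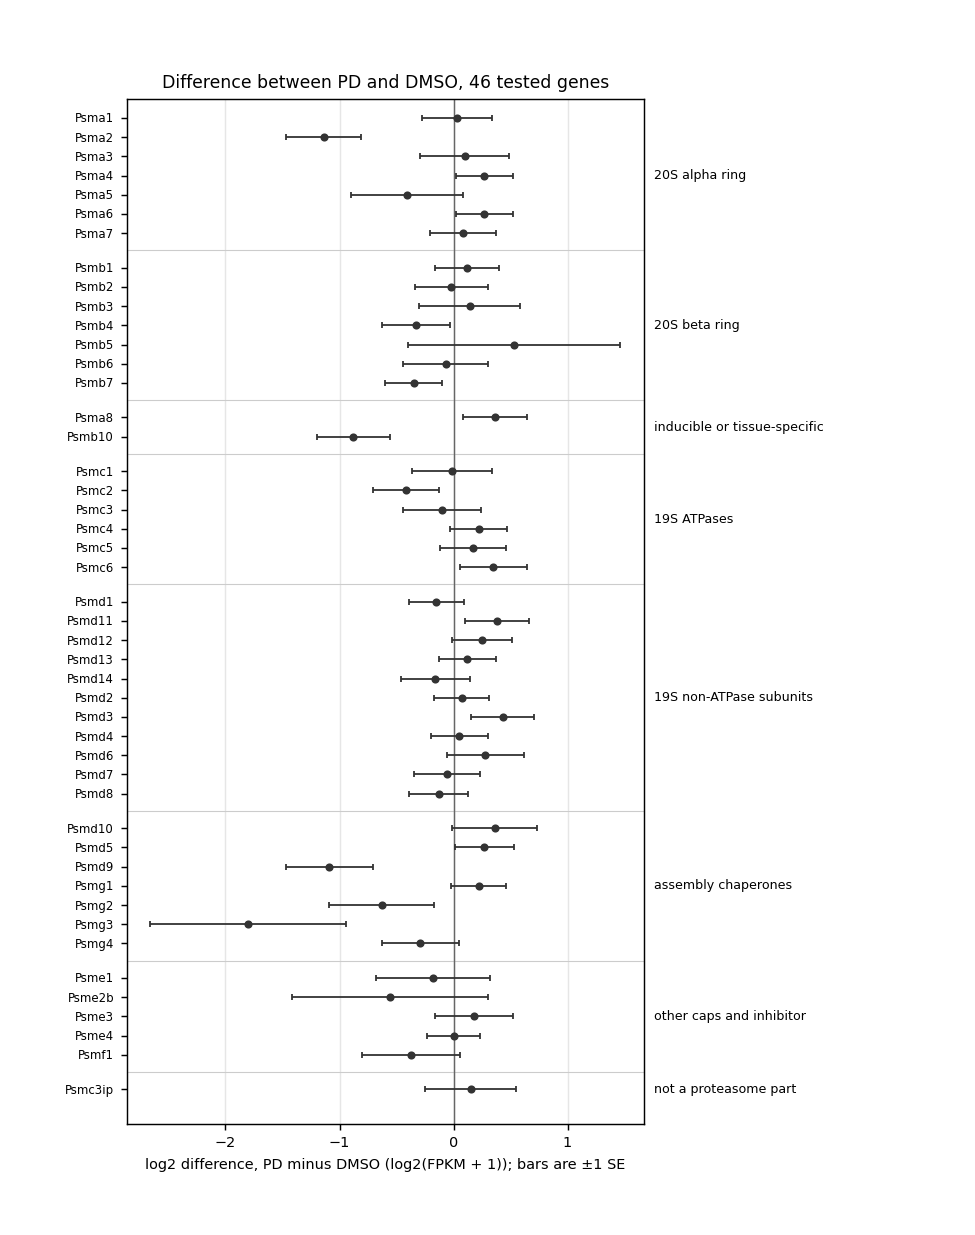
Difference between PD and DMSO (log2(FPKM + 1), PD minus DMSO) for the 46 tested genes by role, with bars of 1 SE from the limma fit on 2 libraries per group. The 19S cap genes all lie within 0.5 of 0, Psmg3 has the largest difference at -1.80, and Psmb5, Psme2b and Psmg3 have the widest bars.

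Subunits that replace the constitutive ones in other cells were low beside most constitutive core genes. Among all protein-coding genes listed, the mean levels of Psmb10 and Psma8 lay above 79.5% and 76.8%. Psmb10, which takes the place of Psmb7 in the immunoproteasome, was the only one of the 3 inducible genes with a mean above 1 FPKM. It stood at 10.9 and 7.42 FPKM in DMSO and at 3.92 and 5.02 in PD, from 54, 52, 9 and 5 reads, and both PD libraries were below. The means were 9.17 ± 2.47 and 4.47 ± 0.775 FPKM (SD, n = 2), a difference of -0.88 (SE 0.32, limma adjusted p = 0.837).

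Psmb9, which replaces Psmb6, stood at 1.79 and 1.26 FPKM in DMSO but at 0 under PD. As few as 1 read in each DMSO library would fit these values, but the true reads could be a multiple of that. With the reads this uncertain, the values do not decide whether the groups differed. Psmb8, which replaces Psmb5, was at 0.149 FPKM in DMSO replicate 2 and listed at 0 elsewhere. Psmb11, the thymus form, was listed at 0 in all 4 libraries. Psma8, the form of the alpha ring found in spermatocytes, was at 4.25 and 5 FPKM in DMSO and at 5.43 and 7.04 in PD, with both PD libraries above and a difference of 0.36 (SE 0.28). Psmb8, Psmb9 and Psmb11 were not tested, with means under 1 FPKM.

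The alternative caps and the inhibitor had no gene without overlap among the 5 tested, against 35.8% of all genes tested. So few genes give no result about this group. Psme4, the large nuclear activator, was nearly level over the 4 libraries, at 22.3 and 23.2 FPKM in DMSO and 23.1 and 22.5 in PD, with a difference of 0.00 (SE 0.23). Psme3, the nuclear ring activator, stood at 24.6 and 20.4 FPKM in DMSO and at 32.5 and 20 in PD. Psme1, which forms the interferon-inducible activator with Psme2, was at 11.4 and 14.5 FPKM in DMSO and at 18 and 6.91 in PD, so the PD libraries held both extremes. Psme2 was at 1.45 and 1.54 FPKM in DMSO and listed at 0 in both PD libraries, and it was not tested. The smallest whole reads that fit were 2 and 3 in DMSO, and the true reads could be a multiple of these. Psme2b, an intronless copy of Psme2 that can share its reads, stood at 3.02 and 1.6 FPKM in DMSO and at 3.8 and 0 in PD. Psmf1, the inhibitor known as PI31, stood at 9.14 and 4.09 FPKM in DMSO and at 4.99 and 4.15 in PD. The median of the 5 was -0.18, and it was -0.48 without PD replicate 1, 0.45 without PD replicate 2 and -0.02 when DMSO replicate 1 or DMSO replicate 2 was left out.

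Psmc3ip, the gene that shares only its symbol with the family, was at 28.3 and 42.7 FPKM in DMSO and at 51.4 and 29.2 in PD and overlapped. Without it and Psme2b the median of the other 44 tested genes was 0.04, with 10 above and 8 below in both PD libraries. Those values match the ones over all 46.

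Genes around the proteasome, from a list of 42, were compared the same way; 35 were tested and none passed (limma, lowest adjusted p = 0.837; 1 at an unadjusted p under 0.05). Their median difference was -0.16, with 4 genes above and 9 below in both PD libraries and 22 that overlapped, where 17.5% of all genes tested lay above and 18.3% below. Pomp, the chaperone that matures the core and is consumed in it, was the gene at an unadjusted p under 0.05. It stood at 175 and 123 FPKM in DMSO and at 89.9 and 65.7 in PD, from 437, 433, 104 and 33 reads. Both PD libraries were below, with means of 149 ± 37.2 and 77.8 ± 17.1 FPKM (SD, n = 2) and a difference of -0.92 (SE 0.33, limma adjusted p = 0.837). Sem1, a small lid subunit, was at 555 and 609 FPKM in DMSO and 666 and 374 in PD, and the ubiquitin receptor Adrm1 was at 3.17 and 3.6 in DMSO and 2.66 and 5.24 in PD.

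Nfe2l1, the transcription factor that raises proteasome genes when the protease fails, stood at 18.4 FPKM in both DMSO libraries and at 15.1 and 26.7 in PD. Ddi2, the protease that activates it, stood at 6.93 and 7.63 FPKM in DMSO, 6.98 in PD replicate 1 and 3.21 in PD replicate 2, and Nfe2l2 had a difference of -0.14. Of the enzymes at the cap, Uchl5, a deubiquitinase, stood at 22.4 and 28.9 FPKM in DMSO and at 13.9 and 20.8 in PD, and the ligase Ube3c at 9.48 and 9.03 in DMSO and 8.1 and 7.33 in PD. Both had their PD libraries below. Among the shuttle receptors and the partners of the unfoldase Vcp, 4 of 13 tested genes were above and 2 below in both PD libraries (17.5% and 18.3% of all genes tested). Zfand2b, a zinc finger protein that binds the proteasome, had 3.68 and 4.73 FPKM in DMSO and 6.06 and 9.67 in PD, and Ubqln4, a shuttle receptor, had 18.9 and 18.1 in DMSO and 11.2 and 13.5 in PD.

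Of the genes for ubiquitin and its activation, 1 of 4 had both PD libraries below (18.3% of all genes tested) and none had both above (17.5%). Ubiquitin genes have processed copies in the genome, so their values are uncertain. Rps27a, which encodes ubiquitin fused to a ribosomal protein, stood at 5.58 and 3.2 FPKM in DMSO and at 3.01 and 1.73 in PD, from 16, 13, 4 and 1 reads. Ubb, a polyubiquitin gene, stood at 27.2 and 9.2 FPKM in DMSO and at 14.1 and 23.7 in PD, so the DMSO libraries held both extremes. Its difference of 0.19 (SE 0.60) was -0.54 without DMSO replicate 2 and -0.17 without PD replicate 2. In the list for antigen processing and the interferon response, which holds the partners of the inducible subunits, 3 of the 5 tested genes had both PD libraries below (18.3% of all genes tested) and none had both above (17.5%); so few genes give no result about the list. H2-K1, a class I antigen gene, stood at 11.8 and 10.5 FPKM in DMSO and at 9.44 and 4.5 in PD, and H2-D1 at 2.6 and 1.19 in DMSO and 0.7 and 0 in PD; close paralogs can share their reads. The third with both PD libraries below was the transcription factor Irf1, at 8.91 and 6.7 FPKM in DMSO and 6.65 and 3.97 in PD, while B2m and Tapbp overlapped.

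**Figure D4:**
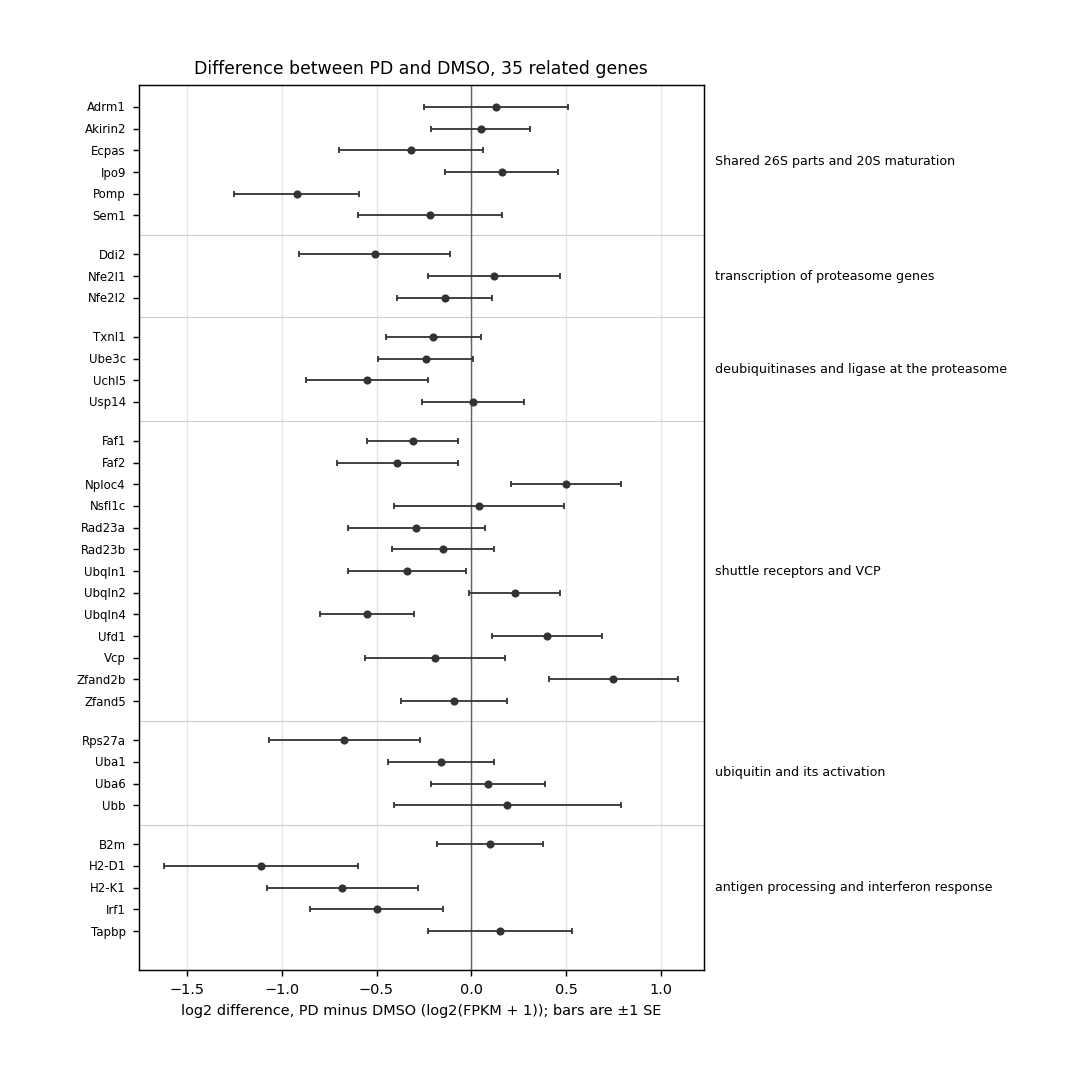
Difference between PD and DMSO (log2(FPKM + 1), PD minus DMSO) for the 35 tested genes around the proteasome by list, with bars of 1 SE from the limma fit on 2 libraries per group. Pomp stands at -0.92, apart from the other genes of its list, and the shuttle receptors spread to both sides of 0.

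Promoters of the family were searched for the site that Nfe2l1 is known to bind, the core of the antioxidant response element, written TGACNNNGC and read on both strands. RefSeq windows (GRCm38.p6) from 250 bases before to 50 bases after the start site were at hand for 42 of the 50 genes. The site occurred in 6 of the 42, or 14.3%, against 14% of the 27025 genes with such a window, so it was as frequent as elsewhere. The CCAAT box, read on both strands, occurred in 35.7% and 41.1%. A match is a description of letters, not of binding. The sites of Psmd9 and Psmb5, whose footprints are described above, and of the ATPase Psmc6 are shown with 12 flanking bases, 5′ to 3′ on the gene's strand, with the match in capitals; in Psmc6 it reads on the opposite strand.
Psmd9, chr5:123228147-123228179, plus strand: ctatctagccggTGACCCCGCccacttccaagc
Psmb5, chr14:54618022-54618054, minus strand: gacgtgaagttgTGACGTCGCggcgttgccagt
Psmc6, chr14:45329585-45329617, plus strand: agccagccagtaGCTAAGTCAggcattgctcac
The match ends 23 bases before the start site in Psmd9, 39 bases before it in Psmb5 and 219 bases before it in Psmc6. These 3 genes differed in direction, with Psmd9 lower and Psmc6 higher in the PD means and Psmb5 too thin to place.

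The order of levels within the family held across libraries. Over the 46 tested genes, Pearson's r of log2(FPKM + 1) was 0.984 for the pair of DMSO libraries, 0.937 for the PD pair and 0.938 to 0.978 for a DMSO with a PD library. This is a description across genes, which share library and depth and are not independent replicates.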

How the data were processed

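The deposited values are FPKM (fragments per kilobase of transcript and per total of mapped fragments) for 25170 genes in 4 libraries, in the column layout of Cufflinks, per the file headers. The confidence bounds are FPKM as well. Per the submitters' processing notes the tools included STAR, Bowtie2 and Cufflinks, as well as Trimmomatic and FastQC, and the build was mm10; versions, read filters and the handling of multi-mapped reads are not given in the sources used here. A single gene (1) whose status read as failed was left out. Genes averaging 1 FPKM or more were fitted as log2(FPKM + 1) with limma 3.58.1 in R 4.3.3 (lmFit, eBayes with trend), modelling group alone, which left 2 residual degrees of freedom. The code was run on simulated data to check its estimates, not to show its power. With 2 libraries against 2, an exact two-sided permutation test cannot go below 0.333, so none is given per gene.

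Depth is not stated, so whole reads were recovered from the FPKM steps (tolerance 0.02 reads, or 0.002 plus 1e-05 per read where many fits were tried). Of 10161 genes above 0 in every library, 72.6% gave reads, against 0.964% with wrong steps, and for 37 of the 50 genes here. They are the smallest whole numbers that work and could be a fraction of the true reads. Loci are those of the table with 1 added to the start, which then equals the RefSeq start for 14628 genes. Gene types come from the RefSeq table, which held 25083 of the symbols. The members and lists were chosen with earlier results of these data known. Named genes are, per role, up to 4 with the largest differences plus the highest and lowest level, and up to 2 per related list; the other members are given besides. Some genes of the related lists are not reported here and are left out of the lists' counts and medians.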

Additional observations from a re-analysis of the deposited data

How the results depend on the processing

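No proteasome gene and no related gene passed (0 higher, 0 lower) in any of the 14 alternatives, where the lowest adjusted p of a proteasome gene was 0.389 (limma, Psmg3 without PD replicate 1) and, with the replicate number as a block, 0.677. The numbers do not name a shared batch. Deviations of same-numbered libraries correlated at 0.0992 over all tested genes and at 0.203 over protein-coding ones. The replicate block changed no call among the proteasome and related genes and left the median of the family at 0.04. The median of the family lay between -0.06 and 0.13. Genes with PD above numbered 15 to 21 and those below 9 to 19 when 1 library was left out, since 3 libraries overlap less often. With voom on recovered reads, which tested 35 of the 46 genes, 6 were above and 7 below. The matching shares over all genes were not computed for these settings, so the counts give no result about the family. Over all genes tested, 25 passed in the reported fit and 19 with the replicate block. With voom 0 passed, of the 6839 genes it tested. Of 587 values of named genes under the alternatives, 563 kept their sign. Psmc1 stood at 0.06 with quantile normalization and at 0.03 when centred on the median, Psme1 at 0.03 with voom, and the ATPase median at -0.00178 with voom. When 1 library was left out, the other sign appeared in Psma3 (-0.15 to 0.35), Psma5 (-1.04 to 0.22), Psmb3 (-0.27 to 0.54), Psmb5 (-0.73 to 1.80), Psmb6 (-0.41 to 0.28), Psmc1 (-0.39 to 0.38), Psmc3ip (-0.24 to 0.55), Psmc5 (-0.01 to 0.35), Psmd10 (-0.04 to 0.76), Psmd6 (-0.05 to 0.60), Psme1 (-0.81 to 0.45), Psme2b (-1.69 to 0.57), Psme3 (-0.15 to 0.52), Psmf1 (-0.87 to 0.13), Ubb (-0.54 to 0.92) and the ATPase median (-0.09 to 0.24). The cause was not tested. The coefficient of variation stayed at 0.75 to 0.781 for the core and 0.626 to 0.679 for the cap. Reads per codon were not run, as no protein lengths were used here. PD replicate 2, at 0.201 of the depth of DMSO replicate 1, limits all values in PD.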

Other observations

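A locus in the deposited table can span neighbours that Cufflinks joined, and 7 of the 50 genes share theirs with another gene. Mlx, a transcription factor joined to Psmc3ip, stood at 9.28 and 6.72 FPKM in DMSO and at 18.2 and 2.82 in PD. 3110056K07Rik, joined to Psma3, stood at 1.83 and 0.968 FPKM in DMSO and at 3.74 and 0 in PD. Mir686, within the locus of Psmb5, was at 39.9 FPKM in DMSO replicate 2 and listed at 0 in the other libraries. Emc9, joined to Psme1, stood at 1.79, 1.01, 1.54 and 0 FPKM in the same order. The part of shared reads in these values was not tested.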
